A study of Arabidopsis thaliana with 6 samples.

Results

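The genes described here encode the chitinases and the thaumatin-like proteins of Arabidopsis thaliana. Of 48 listed loci, 24 are chitinases and 24 are thaumatin-like proteins. A probe set of the array named 1 gene for 35 of the 48, namely 15 chitinases and 20 thaumatin-like genes, out of 13356 genes named in this way. Where a gene had more than 1 such probe set, the one with the highest mean over the 6 arrays was used. Another 4 chitinase loci share 2 probe sets with each other and were not used by name. The remaining 9 loci, among them the basic chitinase gene HCHIB, the chitinase-like genes POM1 and CTL2, and PR5, were not analysed here. The loci were chosen by family, after the callus and leaf values of genes such as OSM34 and AT2G43610 had been seen to differ widely. The member values below are therefore a description and test nothing about the families.

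Expression was measured in wild-type Col-0, with no transgene, mutation or agent other than the medium. The leaf group held 3 arrays of leaves from 20-day-old seedlings. The callus group held 3 arrays of calli that had formed on leaf blades of 20-day-old plants during 20 days on callus-inducing medium (CIM), which supplies an auxin, a cytokinin and glucose. Tissue, wounding, medium and time in culture thus differed together between the groups and cannot be told apart, and the labels give 16 h of light for both tissues while the methods place explants on CIM in the dark. The methods describe 3 independent experiments, and no source used here says how many plants were pooled for an array.

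Chitinases cut chitin, the N-acetylglucosamine polymer of fungal cell walls. They belong to glycosyl hydrolase families 18 and 19, which differ in fold and in the way they cut. Thaumatin-like proteins take their name from a sweet protein of a tropical fruit and form the PR-5 group of pathogenesis-related proteins. Osmotin, a member first found in tobacco cells adapted to salt, acts on fungal membranes. Plant genomes carry many copies of both families, often next to each other, and their members are expressed in defence, in roots and during growth as well.

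Median log2 values of the 6 arrays ran from 5.79 to 5.95, and arrays of 1 group correlated at 0.9949 or above. The 3 callus arrays lay apart from the 3 leaf arrays in the lists of tissue markers. All 8 genes of photosynthesis were lower in callus, with summed log2 levels of 41.26 to 41.96 in callus and 103.26 to 103.87 in leaf. The 2 measured guard cell genes were lower as well (summed log2 levels of 8.39 to 8.74 against 14.59 to 15.03). Of 10 listed callus and root meristem genes only 4 were measured. Of these 3 were higher, PYK10, BBM and LBD16 (log2 fold change 7.91, 3.74 and 2.79), and LBD29 was not called (0.34). Summed over the 4, levels were 32.18 to 32.64 against 17.55 to 17.73, and PYK10 made the largest part of the difference. All 3 measured genes of dividing cells were higher (summed, 20.46 to 21.04 against 13.72 to 14.48). Phloem markers were not analysed here, and the part of any cell type in the values below was not tested. In bulk tissue, fewer cells of a type and less RNA per cell cannot be told apart. As a measure of RNA quality, the log2 signal of the actin control probes at the 3' end exceeded that at the 5' end by 1.53 ± 0.0549 on callus arrays and by 1.84 ± 0.268 on leaf arrays (SD, n = 3 each). For the GAPDH control the same difference was 0.367 ± 0.0862 on callus and 0.247 ± 0.0654 on leaf arrays, the other direction. Two-sided exact permutation tests gave p = 0.2 for each control, where 3 against 3 arrays allow no p below 0.1.

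More members were higher than lower in callus, and the rises were the larger changes. A gene was called where the limma adjusted p was under 0.05 and the change more than 2-fold. By this rule 15 of the 35 members (42.9%) were called, where 29.6% of all 13356 genes were. The 12 members called higher were 34.3% of the members, beside 16.4% of all genes, and the 3 called lower were 8.57%, beside 13.2%. Of the 12, 8 rose more than 4-fold (22.9%, beside 6.28% of all genes) and 5 more than 16-fold (14.3%, beside 0.883%). The callus and leaf arrays did not overlap for 28 of the 35 members (80.0%), beside 66% of all genes. The median log2 fold change, callus over leaf, was 0.14 over the members and 0.01 over all genes, and the median of its size without sign was 0.59 against 0.41. The balance of calls followed the scaling of the arrays. With the deposited values 80.0% of the called members were higher, but the share was 55.6% with arrays centred on TIP41, a common reference gene, and 94.1% with arrays centred on spiked-in poly-A RNAs. The members' median became -0.45 with TIP41. Over all genes called, 55.4% were higher as deposited, 31.0% with TIP41 and 78.0% with the poly-A RNAs.

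**Figure D1:**
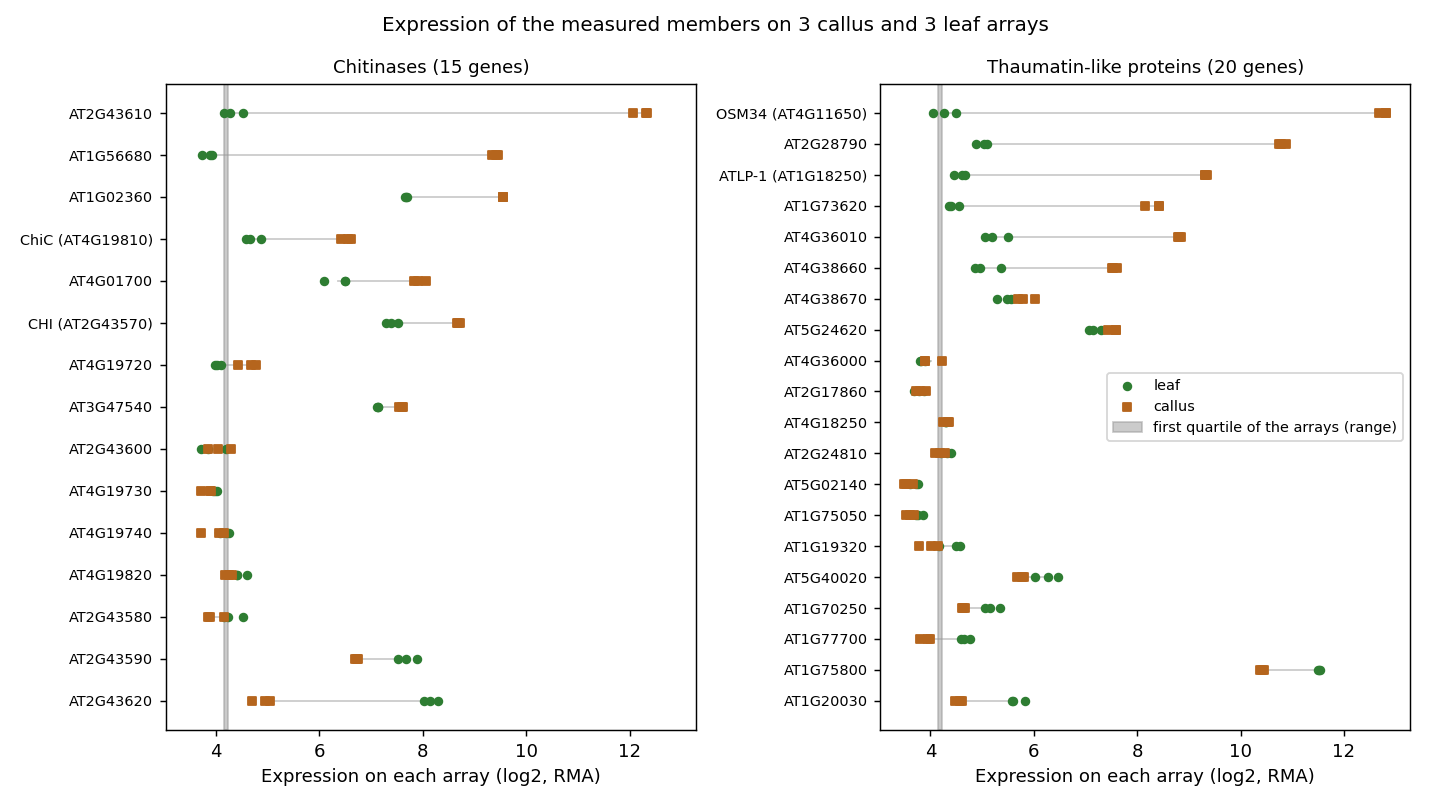
Expression on each array (x axis, log2 RMA values) of the 15 measured chitinase genes and the 20 measured thaumatin-like genes (y axis, ordered by log2 fold change), with green circles for the 3 leaf arrays, brown squares for the 3 callus arrays, a line between the group means and a grey band for the range of the first quartile over the arrays (4.15 to 4.23). OSM34 and AT2G43610 go from leaf values near the grey band (4.06 to 4.52) to above 12 in callus, while many members stay near the band in both tissues.

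The family 19 chitinases held the largest change among the chitinases. Of 10 measured genes 5 were called higher (50%, beside 16.4% of all genes) and 1 lower (10%, beside 13.2%). AT2G43610 stood at 12.34, 12.32 and 12.07 on the callus arrays and at 4.15, 4.52 and 4.27 on the leaf arrays. The groups were far apart, and 1 of its leaf values lay below the first quartile of its array. Its log2 fold change was 7.93 ± 0.0995 (moderated SE), which ranked 5 of 13356 genes. RMA gives no background level, so a fold against such a dim leaf value is not exact.

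AT1G56680, another gene of the class IV type, showed the same kind of pattern at a lower callus level. Its values were 9.46, 9.42 and 9.33 in callus and 3.73, 3.93 and 3.89 in leaf. All 3 leaf arrays were below the first quartile, and the log2 fold change was 5.55 ± 0.0993 (SE). AT1G56680 was the only member called higher whose leaf arrays all lay below the first quartile, so its fold is not exact either.

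The other 3 family 19 genes called higher had a clear signal in both tissues. AT1G02360, of the class II type, stood at 9.55, 9.56 and 9.55 in callus and at 7.67, 7.65 and 7.70 in leaf. It was 3.69-fold higher in callus, with an SD between replicates of 0.00161 in callus and 0.0242 in leaf. AT4G01700, also of the class II type, stood at 7.92, 8.07 and 7.84 in callus and 6.08, 6.50 and 6.50 in leaf. Leaf replicate 1 was the lowest leaf array, the groups did not overlap, and the gene was 2.99-fold higher. CHI (AT2G43570), a chitinase of the class IV type, stood at 8.69, 8.65 and 8.72 in callus and 7.29, 7.52 and 7.38 in leaf, a 2.45-fold difference. AT4G01700 (log2 fold change 0.99) and CHI (0.70) were no longer called with arrays centred on TIP41.

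AT2G43620 went against the others. Its values were 5.05, 4.69 and 4.95 in callus and 8.14, 8.29 and 8.02 in leaf, a log2 fold change of -3.25 ± 0.117 (SE), and all callus arrays lay below all leaf arrays. It was 9.53-fold higher in leaf and was the 1 member that fell more than 4-fold, where 7.16% of all genes did. AT2G43590 was also higher in leaf, at 6.75, 6.69 and 6.73 in callus and 7.67, 7.52 and 7.88 in leaf. Its groups did not overlap, but at 1.96-fold (log2 fold change -0.97) it lay just outside the fold threshold, and it was called without leaf replicate 2 (-1.05), with quantile normalization applied again (-1.01), with TIP41 (-1.55) or with no fold threshold. AT3G47540 was slightly higher in callus without reaching 2-fold, at 7.58 ± 0.0316 against 7.12 ± 0.0103 (SD, n = 3).

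CHI, AT2G43580, AT2G43590, AT2G43600, AT2G43610 and AT2G43620 stand next to each other in this order in the TAIR10.1 gene annotation. Along this run of 6 genes the log2 fold changes were 1.29, -0.34, -0.97, 0.14, 7.93 and -3.25. AT2G43580 stood at 3.85, 3.89 and 4.15 in callus and 4.52, 4.16 and 4.23 in leaf. AT2G43600 stood at 4.03, 3.84 and 4.28 in callus and 4.19, 3.84 and 3.71 in leaf. Both were close to or below the first quartile of the arrays, and the arrays of AT2G43600 overlapped between the groups. The genes of the run that had a clear signal thus went in both directions.

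AT2G43610 and AT2G43620, neighbours in the annotation, differed by 11.2 in log2 fold change. Among 5814 pairs of neighbouring protein-coding genes with both members measured, this was the largest difference (rank 1). The median difference over these pairs was 0.98, and 7.28% of them differed by more than 4. In 267 pairs (4.59%) 1 gene was called higher and the other lower, and among the 10 pairs of neighbouring members this held for 1. This pair was singled out after its values were seen, and no test was made of it. The caution on the dim leaf values of AT2G43610 holds here too, so the difference of 11.2 is not exact.

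**Figure D2:**
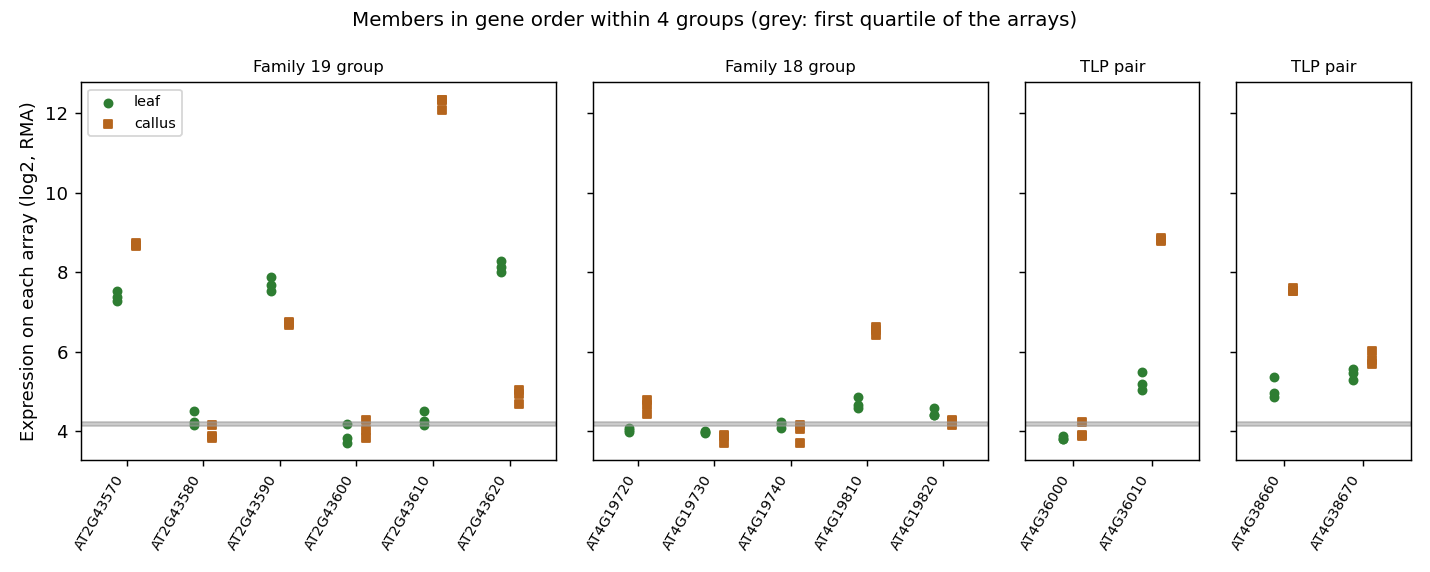
Expression on each array (y axis, log2 RMA values) of members that lie close together in the genome, in gene order on the x axis, with green circles for 3 leaf arrays, brown squares for 3 callus arrays and a grey band for the first quartile of the arrays (4.15 to 4.23). AT2G43610 is high in callus beside AT2G43620, which is high in leaf, and in both pairs of thaumatin-like genes the gene with the larger rise has a neighbour that changed by less than 2-fold.

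Of the 5 measured family 18 chitinases 1 was called, and it was higher (20%, beside 16.4% of all genes), a share near that of all genes. ChiC (AT4G19810), a class V chitinase, stood at 6.42, 6.62 and 6.56 in callus and 4.67, 4.58 and 4.88 in leaf. All callus arrays were above all leaf arrays, and the gene was 3.54-fold higher in callus (log2 fold change 1.82 ± 0.120, SE).

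AT4G19720 lies in the same stretch of family 18 genes and was at 4.78, 4.43 and 4.67 in callus and 3.98, 4.03 and 4.09 in leaf. Its groups did not overlap, its leaf values were all below the first quartile, and at a log2 fold change of 0.59 it was not called.

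AT4G19730 stood at 3.89, 3.71 and 3.90 in callus and 3.95, 4.01 and 3.97 in leaf. All 6 values lay below the first quartile of their arrays. AT4G19740 stood at 4.15, 3.72 and 4.06 in callus and 4.25, 4.08 and 4.198 in leaf, and its groups overlapped. AT4G19820, the neighbour of ChiC, stood at 4.26, 4.17 and 4.30 in callus and 4.42, 4.42 and 4.60 in leaf. Its groups did not overlap. The log2 fold changes of these 3 genes, -0.14, -0.20 and -0.23, turned positive with the poly-A or the hybridization controls. The 2 probe sets shared by the 4 other listed genes between AT4G19740 and ChiC were below the first quartile on all 6 arrays, with log2 differences of -0.11 and -0.09.

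The thaumatin-like genes held the largest rise of all members. Of 20 measured genes 6 were called higher (30%, beside 16.4% of all genes), all of them more than 4-fold (beside 6.28%). The 2 called lower were 10%, beside 13.2% of all genes. OSM34 (AT4G11650), an osmotin-like gene, stood at 12.82, 12.81 and 12.67 in callus and at 4.49, 4.27 and 4.06 in leaf. It had the largest difference of all members, a log2 fold change of 8.50 ± 0.0964 (SE), rank 3 of 13356 genes. Leaf replicate 3 lay below the first quartile of its array, and the caution on dim leaf values applies here too.

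AT2G28790 followed, with 10.79, 10.89 and 10.75 in callus and 5.04, 4.89 and 5.10 in leaf. Its leaf values were above the first quartile on every array, and the log2 fold change was 5.80 ± 0.0825 (SE), 55.6-fold. ATLP-1 (AT1G18250) stood at 9.31, 9.35 and 9.31 in callus and 4.46, 4.61 and 4.67 in leaf. The groups were again far apart, by 26.8-fold. AT1G73620 stood at 8.42, 8.42 and 8.14 in callus and 4.36, 4.39 and 4.56 in leaf, 14.8-fold apart. The leaf values of ATLP-1 and AT1G73620 lay little above the first quartile of the arrays (4.15 to 4.23), so their folds are not exact either.

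AT4G36010 and AT4G38660 completed the genes called higher. AT4G36010 was at 8.85, 8.82 and 8.79 in callus and 5.19, 5.50 and 5.05 in leaf, an 11.9-fold difference. AT4G38660 was at 7.52, 7.61 and 7.53 in callus and 4.86, 5.36 and 4.96 in leaf, a 5.62-fold difference. For both, the leaf arrays varied more than the callus arrays (SD 0.230 and 0.266 against 0.0342 and 0.0471), and no callus array came near a leaf array.

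Each of these 2 genes has a thaumatin-like neighbour that was not called with the deposited values. AT4G36000, beside AT4G36010, was at 3.89, 3.90 and 4.23 in callus and 3.90, 3.81 and 3.81 in leaf, and its groups overlapped. It lay below the first quartile on 5 of the 6 arrays, so an unchanged level cannot be told from a dim signal. AT4G38670, beside AT4G38660, had a clear signal in both tissues, 5.84 ± 0.167 and 5.45 ± 0.141 (SD, n = 3). Its log2 fold change was 0.39 ± 0.125 (SE), against 2.49 ± 0.127 for its neighbour. With the poly-A controls AT4G38670 reached 1.05, past the 2-fold threshold.

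The 2 thaumatin-like genes called lower changed by little more than the threshold. AT1G75800 was at 10.41, 10.46 and 10.37 in callus and 11.52, 11.50 and 11.54 in leaf. Its replicates were tight, the groups did not overlap, and the difference was 2.15-fold. AT1G20030 was at 4.47, 4.58 and 4.61 in callus and 5.59, 5.58 and 5.83 in leaf, 2.16-fold lower in callus. Both calls were lost in a test against a 2-fold change, with the poly-A controls (-0.45 for each gene) and with the hybridization controls (-0.85 for each).

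Of the other 12 thaumatin-like genes, AT1G77700 had the lowest log2 fold change, -0.75. It was at 3.92 ± 0.0998 in callus, below the first quartile on all 3 arrays, and at 4.67 ± 0.0966 in leaf. AT1G70250, AT5G40020 and AT1G19320 followed at -0.55, -0.51 and -0.44. These 4 had callus arrays below their leaf arrays and were called lower with TIP41. A second, dim probe set of AT1G70250 read 4.26 in callus and 4.15 in leaf, the other direction. AT5G24620 was at 7.54 ± 0.0857 in callus and 7.17 ± 0.113 in leaf, with no overlap and a log2 fold change of 0.37. AT1G75050, AT5G02140, AT2G24810, AT2G17860 and AT4G18250, which encodes a receptor kinase with a thaumatin-like outer part, lay between -0.18 and 0.03. The values of AT1G75050, AT5G02140 and AT2G17860, like those of AT4G19730, were below the first quartile on all 6 arrays, and an unchanged level cannot be told from a dim signal. In all, 4 of 35 members were that dim throughout, where 21.6% of all genes were.

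**Figure D3:**
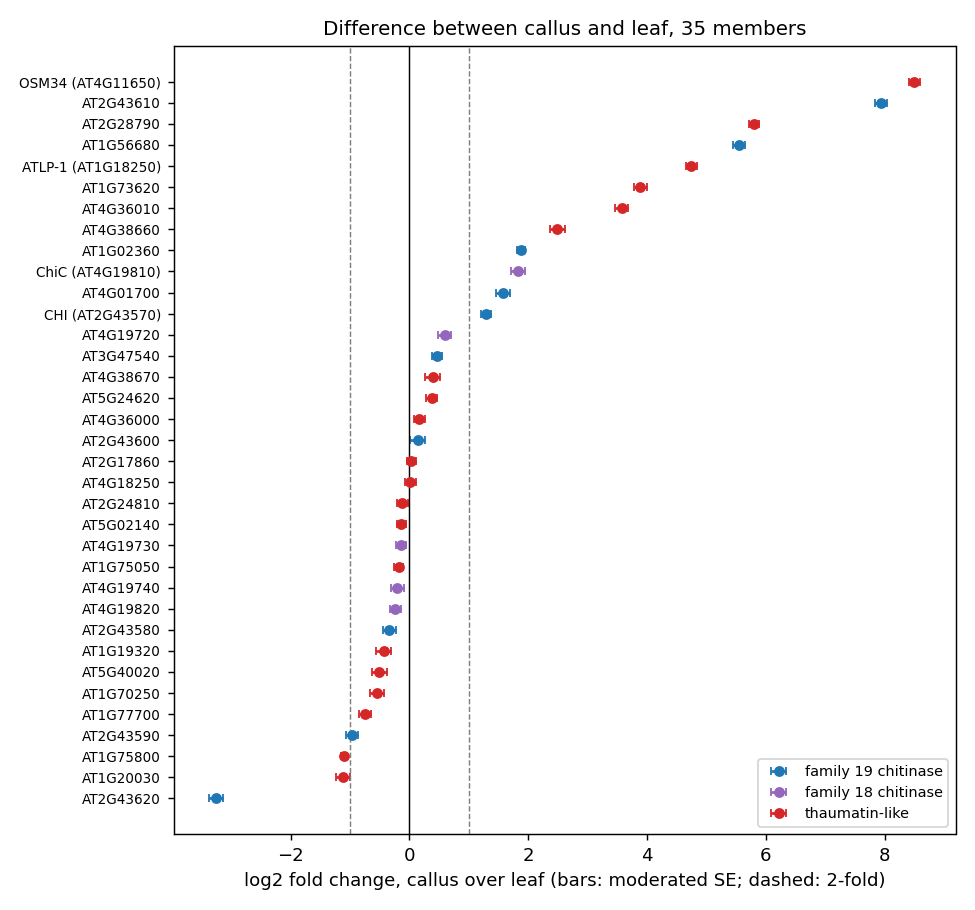
The log2 fold change of callus over leaf (x axis, bars are the moderated SE from 3 arrays a group) for the 35 measured members (y axis), coloured by family, with dashed lines at a 2-fold change. The values run from -3.25 for AT2G43620 to 8.50 for OSM34, and the 20 members not called lie between the dashed lines, from -0.97 to 0.59.

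Replicate spread was small beside the differences of the called members. It was not small beside those of members nearest 0, such as AT4G18250 (0.01 ± 0.0917, SE). The SE of the members' log2 fold changes ran from 0.0483 to 0.127. The median SD between callus arrays was 0.0840 over the members and 0.0867 over all genes, and between leaf arrays it was 0.109 and 0.103. All 15 called members had groups that did not overlap, which a call with so small an SE nearly implies. So did 13 of the 20 not called. The 66% of all genes counts called genes as well, so it is not a like share for members not called.

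Centring each array on another reference shifts every gene alike, so all members moved by the same amount. The median log2 fold change of all genes, 0.01 as deposited, became -0.58 with TIP41. It became 0.27 with the hybridization controls and 0.67 with the poly-A controls. TIP41 itself was 0.59 higher in callus on the log2 scale as deposited. The number of members called higher was 12 as deposited, 10 with TIP41, 12 with the hybridization controls and 16 with the poly-A controls. The number called lower was 3, 8, 1 and 1 in the same order. The 8 members that rose more than 4-fold, ChiC, AT1G02360 and AT2G43620 stayed past the threshold under all 4.

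**Figure D4:**
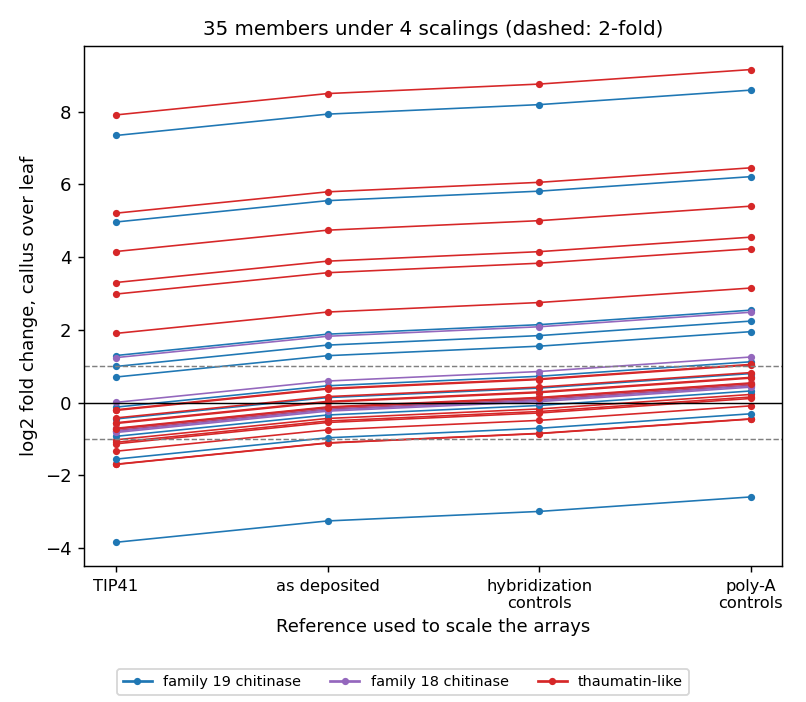
The log2 fold change of callus over leaf (y axis) for 35 members, 1 line for each, under 4 scalings of the arrays (x axis: TIP41, as deposited, hybridization controls, poly-A controls), and dashed lines at a 2-fold change. Each scaling shifts all genes alike, so the lines run in parallel. Members near 0 cross it, and those that rose more than 4-fold and AT2G43620 keep their side.

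Other genes of defence and of wall glucan breakdown went in both directions. Beta-1,3-glucanases cut callose and fungal glucans and often act beside chitinases. Of 48 listed genes 39 were measured, with 8 called higher, 6 lower and 25 not called. Thus 20.5% were higher and 15.4% lower, shares near the 16.4% and 13.2% of all genes. Their median log2 fold change was -0.11. AT1G66250, AT5G55180 and AT4G16260 rose most (4.32-fold, 3.66-fold and 3.40-fold), and AT4G31140, AT2G27500 and AT4G18340 fell most (log2 fold change -2.37, -2.06 and -1.60). With TIP41, 3 glucanases were called higher and 10 lower, and with the poly-A controls 12 were higher and 2 lower, AT4G18340 (-0.94) not among them. None of the 39 changed as much as OSM34 or AT2G43610. The wide differences of those 2 genes were known when the loci were chosen, so this contrast tests nothing.

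Of 18 listed genes for defensins, thionins and the salicylate pathway 9 were measured, all of them defensins (PDF) or thionins (THI), so that no gene of the salicylate pathway was analysed here. Among the 9, 2 were called higher (22.2%, beside 16.4% of all genes) and 4 lower (44.4%, beside 13.2%), with a median log2 fold change of -0.60. PDF1.1, a plant defensin, was at 11.21, 11.27 and 11.06 in callus and 4.63, 4.13 and 4.25 in leaf. It rose 115-fold (limma adjusted p = 7.93e-17), and with 1 leaf value below the first quartile this fold is not exact. PDF1.2, its relative that responds to jasmonate and ethylene, was at 5.37, 5.13 and 5.36 in callus and 10.70, 11.18 and 11.19 in leaf. It was 53.4-fold higher in leaf (limma adjusted p = 8.88e-16). PDF1.2b and PDF2.3 were also lower in callus (log2 fold change -4.26 and -3.82), and PDF2.1 was higher (1.23), a call lost with TIP41 (0.65) and in a test against a 2-fold change. PDF1.2 and PDF1.2b are close copies, so their probe sets may read each other's RNA.

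Few genes of the remaining pathways were measured. Of the chitin perception list 2 of 15 were measured. BIK1, a kinase of immune signalling, was 2.43-fold higher (limma adjusted p = 1.52e-10, not called with TIP41 at 0.69), and PBL27, a kinase downstream of the chitin receptor, was at 0.11 (limma adjusted p = 0.384). EIN3, a regulator of ethylene responses, was at 0.23 and not called. COR15A, a cold and osmotic stress gene, was at 3.79, 3.98 and 3.99 in callus and 7.57, 7.54 and 7.49 in leaf (limma adjusted p = 1.02e-13). Its callus values all lay below the first quartile, so no exact fold is given. COB, which acts in cellulose synthesis of growing cells, was at -1.46 and was not called with the poly-A controls (-0.80), and IRX10, of secondary walls, was at -0.35 and not called.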

How the data were processed

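RNA of 3 callus and 3 leaf samples was primed with oligo(dT), labelled with biotin and hybridised to Affymetrix GeneChip arrays. Each deposited value is a log2 signal of 1 probe set on 1 array. Per the labels the authors used RMA (background correction, quantile normalization and summary over probes) and Partek, with no versions given. The annotation behind the probe sets is not given in the sources used here. Of 22810 probe sets 64 were controls, 13513 named 1 gene in the platform's gene table, 503 named several and 8730 were not listed there. Gene names were updated through the TAIR10.1 gene table, which otherwise served only for the order of genes.

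All 13356 named genes entered 1 linear model with moderated variance that follows intensity (limma 3.58.1, R 4.3.3), and p-values were adjusted by Benjamini-Hochberg over all of them. No filter on low values was set. Genes past an adjusted p of 0.05 and 2-fold, the fold used in the study's methods, were called. RMA values carry no detection call, so the first quartile of each array marked dim signals, and the number of arrays limits the precision.

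The members and the gene lists were chosen with earlier results of these data known. Values on each array are given for members called with more than 4-fold change, for those with a described role and for those in the runs of neighbouring chitinases, and for some others. From each pathway list up to 3 called genes per direction were named. PBL27, EIN3 and IRX10 were named as well, so that the small lists are complete. Protein and promoter sequences were not analysed here. The script was tested on simulated data. Alternatives covered thresholds, moderation, normalization, scaling, dim genes, probe sets, pairing and single arrays.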

Additional observations from a re-analysis of the deposited data

How the results depend on the processing

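The 12 members called higher became 10 to 16 under the alternatives. The 3 called lower became 10 with no fold threshold, 1 in a test against a 2-fold change, 8 with TIP41, 4 with quantile normalization applied again, 1 with the poly-A controls and 1 with the hybridization controls. With no fold threshold 61.2% of all genes were called. The members' median of 0.14 became -0.45 with TIP41, 0.80 with the poly-A controls and 0.40 with the hybridization controls. It was 1.88 over the 17 members left when genes below the median signal were dropped, a set that the signal itself selects. Leaving out single arrays gave medians of 0.0385 to 0.219, with 12 members higher and 3 to 4 lower. AT2G43590 was the added call without leaf replicate 2 and with quantile normalization applied again.

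Members that turned in sign were all among those not called. With TIP41 these were AT3G47540 (-0.12), AT2G43600 (-0.45), AT4G38670 (-0.20), AT5G24620 (-0.21), AT4G36000 (-0.42), AT2G17860 (-0.55) and AT4G18250 (-0.57). With the poly-A controls they were AT4G19730 (0.52), AT4G19740 (0.46), AT4G19820 (0.43), AT2G43580 (0.32), AT2G24810 (0.54), AT5G02140 (0.53), AT1G75050 (0.48), AT1G19320 (0.22), AT5G40020 (0.15) and AT1G70250 (0.11). With the hybridization controls they were AT4G19730 (0.116), AT4G19740 (0.0598), AT4G19820 (0.0268), AT2G24810 (0.143), AT5G02140 (0.127) and AT1G75050 (0.0793). Without single arrays AT2G17860 ran from -0.0164 to 0.0825 and AT4G18250 from -0.00809 to 0.0498. Centring shifts every gene of an array alike, which moves members near 0 across it.

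Among the pathway lists, the 8 glucanases called higher became 3 with TIP41, 12 with no fold threshold, 12 with the poly-A controls and 10 with the hybridization controls. The 6 lower became 10, 13, 2 and 5 in the same order. Of the defence list, 2 higher became 1 in the test against a 2-fold change, 1 with TIP41 and 1 without dim genes. The 1 called gene of the chitin list, BIK1, and that of the primary wall list, COB, became 0 with TIP41 and with the poly-A controls, respectively. The lists of EIN3 and IRX10 had 1 call each with no fold threshold, and the guard cell list had 1 call when dim genes were dropped.

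Callus and leaf share replicate numbers that the labels do not explain, and deviations of same-numbered arrays correlated at -0.108, 0.0719 and -0.0426, so the numbers were not taken as pairs. With the replicate number as a block, 12 members were higher and 3 lower, with a median of 0.14.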
